A study of Mus musculus with 14 samples.

Results

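The quantity described here is the difference between the lesion responses of microglia-ablated and non-ablated mice, gene by gene. A lesion response is the log2 level in demyelinated ventral spinal cord minus that in distal uninjured cord of the same genotype, and the response difference is the ablated response minus the non-ablated one. It rests on all 14 of the 14 libraries of the series, 6 from non-ablated and 8 from ablated mice, and was tested in 15637 of 24116 genes. A negative difference means a smaller rise, or a deeper fall, in ablated lesions.

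Both genotypes carried Cx3cr1-CreER, a recombinase that tamoxifen activates and that the Cx3cr1 promoter drives in microglia and also in other Cx3cr1-expressing cells. Ablated mice (Cx3cr1-CreER with Rosa26-iDTR+/-) had 1 copy of an inducible diphtheria toxin receptor, and non-ablated mice (Rosa26-iDTR-/-) had none. All mice were given tamoxifen over 3 days, then an injection of lysophosphatidylcholine (LPC, a lipid that dissolves myelin) into the ventral cord 4 to 6 weeks later, and diphtheria toxin every day up to tissue collection 5 days after LPC. The controls thus shared the recombinase, tamoxifen, LPC and toxin and lacked the receptor allele. Lesion and distal pieces were dissected from 3 non-ablated and 4 ablated pools of 3 to 5 mice of both sexes, giving 3 lesion and 3 distal non-ablated libraries and 4 of each from ablated mice. The library of a pool is the replicate. Which lesion and which distal piece belong to the same pool is not labelled, so the tests treat the pieces as unpaired. The labelled age increases by 1 month with each library, from 2 to 7 months in the non-ablated and from 8 to 15 months in the ablated libraries. Pieces of the same pool thus carry different ages, and these labels were not used in the main test.

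When myelin is destroyed, debris is cleared by phagocytes, which are resident microglia and monocyte-derived macrophages that enter from the blood. Both divide, take up lipid, and switch on genes for lysosomal digestion, lipid export and growth factors, while oligodendrocyte progenitors are recruited to rebuild myelin. Phagocytes recognise dying cells and myelin through bridging proteins, of which Gas6 links exposed phosphatidylserine to the receptor kinases of the Axl family and Mfge8 links it to integrins. Resting microglia hold a signature that depends on transforming growth factor beta and the factor Sall1, and their survival depends on the receptor Csf1r.

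The libraries held 23601763 to 30844575 recovered reads and 15949 to 17945 genes with a read. Cx3cr1, the gene whose promoter drives the recombinase, follows the labels. Its normalized counts were 864, 1361 and 510 in non-ablated distal tissue, 3892, 3657 and 4717 in non-ablated lesions, 90.2, 21.7, 81.2 and 128 in ablated distal tissue, and 155, 240, 212 and 336 in ablated lesions. Its level was lower in ablated tissue at both sites (-3.62 ± 0.51 on the log2 scale in distal tissue, adjusted p = 0.00922; -4.16 ± 0.51 in lesions, adjusted p = 0.00301), and its response difference was -0.53 ± 0.72 (adjusted p = 0.972), at -1.06 without distal_ablated 9 and -0.17 without distal_control 5. Age labels do not overlap between genotypes, and with age as a linear term limma called 2 genes in place of 46 for ablation in lesions and 7 in place of 57 for ablation in distal tissue, so these ablation calls cannot be told apart from labelled age. Myelin genes check the site label: all 17 tested members of the mature oligodendrocyte list fell in both lesion responses (13.3% of all genes fell in the non-ablated and 13.8% in the ablated response). Several libraries stood apart. Distal_ablated 9 had the highest value per read, 1.67 normalized counts against 0.719 to 1.27 in the other libraries. T and NK cell markers averaged 5.78 in distal_control 5 and 6.78 in lesion_control 6 on the log2 scale, against 0.73 to 4.20 elsewhere. The widely expressed gene B2m and the microglial gene P2ry12 are among 4706 genes listed at 0 in all libraries, so nothing is said of them. The reason for these zeros was not tested.

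Few genes had a response difference past the threshold, although each lesion response alone was broad. The limma fit called 4374 genes (28% of those tested) in the non-ablated lesion response and 4678 (29.9%) in the ablated one. Of these, 3304 were called in both, which is 75.5% of the non-ablated and 70.6% of the ablated calls. A total of 3301 had the same direction in both genotypes and 3 had opposite directions. Among the 3301, the non-ablated response was the larger for 2089 and the ablated one for 1212. The non-ablated response had the larger median standard error (0.48 against 0.41) and so needed a larger value to be called. This tally therefore cannot compare the sizes of the responses. The response difference itself was called for 2 genes (0.0128% of those tested), Kif22 and Cdhr3, both lower in the ablated response. edgeR on recovered reads called the same pair, and DESeq2 called 96 genes (0.614%), 55 higher and 41 lower. At an unadjusted p under 0.05, limma had 885 genes (5.66%), 494 higher and 391 lower. Of 65 genes named in the text, DESeq2 called the difference for 25: Kif22, Cdhr3, Myef2, Gas6, Mfge8, Dyrk4, Arsb, Dab2, Dnal1, Epas1, Slc46a1, Slc11a1, Serpine2, Csf3r, Fcrl1, Siglecf, Csf2rb, Npl, Htra3, Rasgrp2, Rilpl2, Hmmr, Uhrf1, Tgfbr1 and Osm. Many of the 65 were named for a small limma p in the same libraries, so a high share is built in. Where no tool is named below, a call or its absence is limma's. The median response difference over all genes was 0.04. Its median standard error was 0.63, against 0.48 and 0.41 for the non-ablated and ablated responses.

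A further 2444 genes were called in the lesion response of 1 genotype and not of the other, 1070 in non-ablated and 1374 in ablated mice. Of these, 2282 had the same sign in both genotypes and 442 had an unadjusted p under 0.05 for the response difference (5.66% of all genes had). A total of 2 passed the test of the difference, again Kif22 and Cdhr3. limma called no difference for the remainder, and DESeq2 called it for 53 of the 2444 (0.614% of all genes were called). The 2444 were selected on the same 2 responses that make up the difference. A higher share among them is thus built in and is not a result about these genes.

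**Figure D1:**
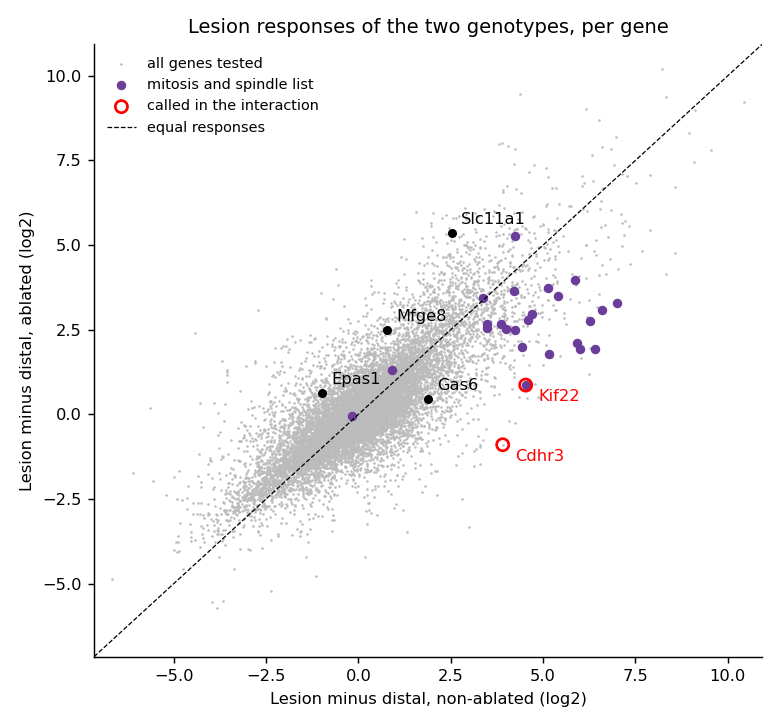
Lesion response of ablated mice (vertical axis) against that of non-ablated mice (horizontal axis) for all 15637 genes tested, in log2 units, with each point 1 gene and the named genes marked. Most genes lie near the line of equal response, and Kif22 and Cdhr3 lie far below it, at 4.53 and 3.91 on the horizontal axis and 0.87 and -0.89 on the vertical one.

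Kif22 encodes a chromosome-binding kinesin of the mitotic spindle. Its normalized counts were 85.9, 47.4 and 112 in non-ablated distal tissue and 1752, 2009 and 1664 in non-ablated lesions. In ablated mice they were 925, 934, 586 and 566 in distal tissue and 2250, 1206, 896 and 1307 in lesions. The distal libraries of the genotypes were apart, while those of the lesions overlapped. Kif22 (chr7:127027729-127042467, GRCm38.p6) rose in non-ablated lesions by 4.53 ± 0.37 on the log2 scale (adjusted p = 1.95e-06). The ablated response was 0.87 ± 0.32 (adjusted p = 0.0573), and the response difference was -3.66 ± 0.49 (adjusted p = 0.0383). In ablated distal tissue its level was higher than in non-ablated distal tissue by 3.23 ± 0.35 (adjusted p = 0.00154), whereas in lesions the genotypes differed by -0.43 ± 0.35 (adjusted p = 0.999). A processed pseudogene, Kif22-ps, is 88.4% identical over 1934 aligned bases, so reads could be split between them. The call was kept without distal_control 5, lesion_ablated 8 or distal_ablated 11 and lost without each of the other libraries, at differences of -3.93 to -3.32.

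Cdhr3 encodes a cadherin-related membrane protein of airway epithelium in humans. Its normalized counts were low, at 9.98, 9.92 and 10.2 in non-ablated distal tissue and 151, 198 and 149 in non-ablated lesions. They were 32, 53.5, 58.4 and 28.6 in ablated distal tissue and 21.3, 37.5, 12.5 and 22 in ablated lesions. Non-ablated lesions stood above every other library, and ablated lesions overlapped ablated distal tissue. Cdhr3 (chr12:33033795-33092901, overlapping the predicted gene Gm40874) rose by 3.91 ± 0.51 in non-ablated lesions (adjusted p = 6.65e-05). The ablated response was -0.89 ± 0.44 (adjusted p = 0.148) and the response difference -4.80 ± 0.68 (adjusted p = 0.0383). Ablated and non-ablated lesions differed by -2.87 ± 0.48 (adjusted p = 0.0237) and the distal groups by 1.94 ± 0.48 (adjusted p = 0.133). Leaving out any 1 library ended the call, at differences of -5.06 to -4.55, and reads of the overlapping gene cannot be separated from it because strand use is not stated.

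**Figure D2:**
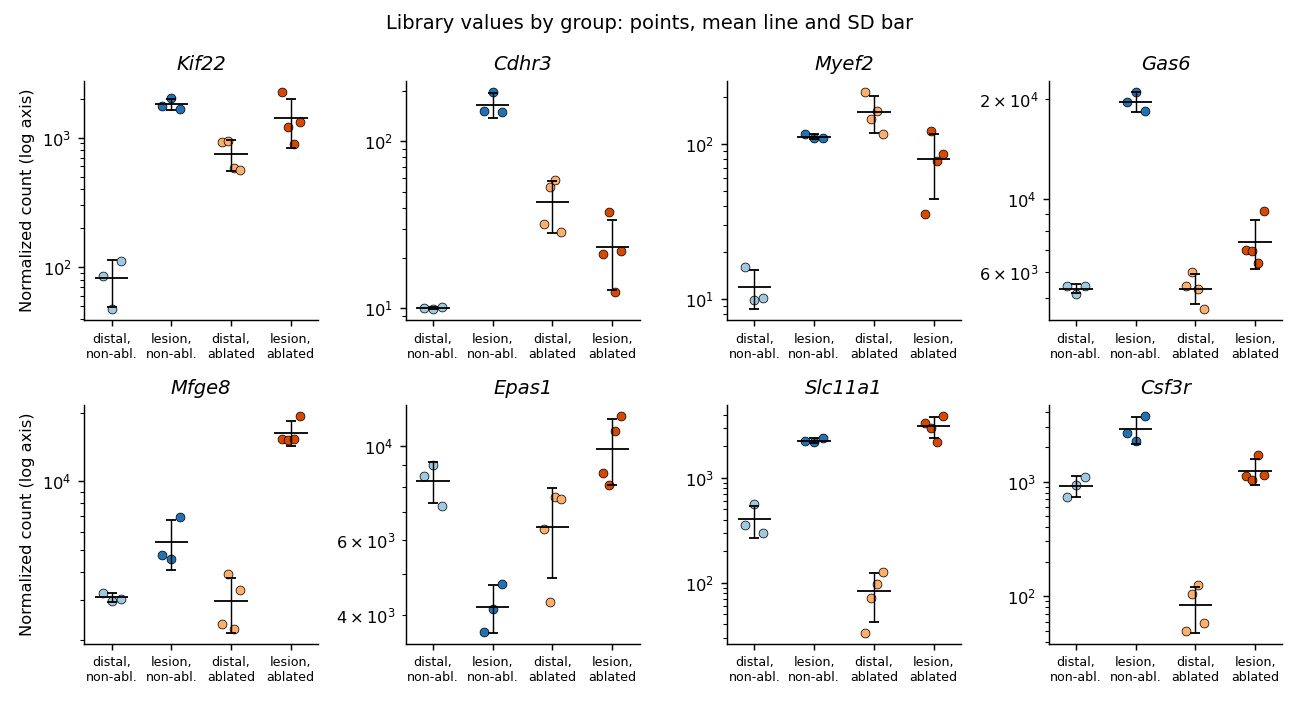
Normalized counts of named genes in each library (points, log axis) with the group mean (line), for non-ablated distal, non-ablated lesion, ablated distal and ablated lesion tissue. Kif22 lay at 47.4 to 112 in non-ablated distal libraries and at 566 to 934 in ablated distal ones, while Cdhr3 lay at 149 to 198 in non-ablated lesions and at 12.5 to 37.5 in ablated ones.

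Kif22 was 1 of 24 genes of a mitosis and spindle list, and the median response of that list was smaller in ablated mice. All 24 were tested. In the non-ablated response 22 rose (14.7% of all genes tested rose), with a median of 4.56, and in the ablated response 19 rose (16.1%), with a median of 2.67. The response difference was negative for 20 of 24, against 47.6% of all genes, with a median of -1.79 against 0.04 over all genes. It was called for Kif22 alone by limma (0.0128% of all genes were called lower). At an unadjusted p under 0.05, 11 were lower and 0 higher (2.5% of all genes were lower), and DESeq2 called 6 lower (0.262%). All lesion-minus-distal pairs were lower in ablated mice for 4 (0.703% of all genes). In ablated distal tissue, 6 lay above every non-ablated library (2.39% of all genes) and 1, Kif22, was called higher (0.0384%). The list mean was 5.03 to 5.29 in non-ablated distal and 6.26 to 6.63 in ablated distal libraries, so the distal groups did not overlap. It was 9.42 to 9.90 in non-ablated and 8.54 to 9.33 in ablated lesions, which did not overlap either. The median response difference lay between -1.95 and -1.52 over single libraries left out and was -2.06 without distal_ablated 9 and lesion_ablated 10.

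**Figure D3:**
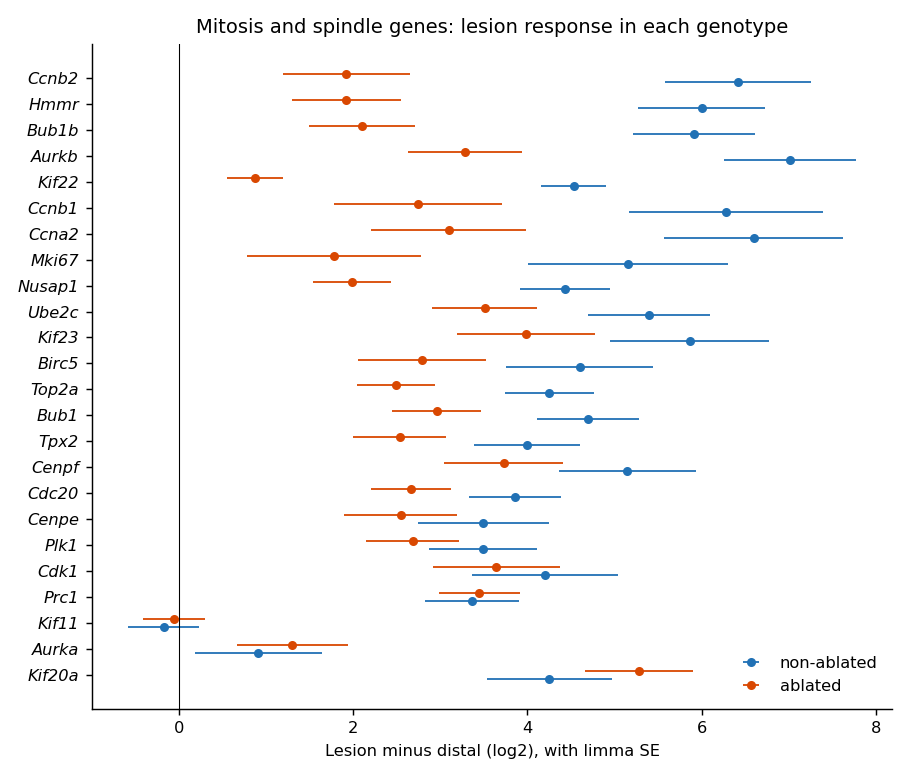
Lesion response with its limma standard error for each of 24 mitosis and spindle genes, in log2 units, in non-ablated (blue) and ablated (orange) mice. In 20 of the 24 genes the ablated response lay below the non-ablated one, and the difference was called for Kif22 alone.

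Hmmr, a spindle-associated hyaluronan receptor, was at 9.98, 3.31 and 1.27 in non-ablated distal tissue and at 308, 370 and 244 in non-ablated lesions. In ablated mice it was at 14.2, 142, 45.6 and 35.7 in distal tissue and at 157, 152, 140 and 226 in lesions. Every ablated lesion library lay below every non-ablated one, and every ablated distal library above every non-ablated one. Hmmr rose by 6.00 ± 0.73 in non-ablated (adjusted p = 3.58e-05) and by 1.92 ± 0.63 in ablated lesions (adjusted p = 0.0322), and the difference, -4.08 ± 0.96, was called by DESeq2 and not by limma (adjusted p = 0.46). Bub1b, a kinase of the spindle checkpoint, was at 8.99, 154 and 15.3 in non-ablated distal tissue and at 1799, 1974 and 1560 in non-ablated lesions, against 209, 249, 203 and 310 and then 1128, 1024, 811 and 1189 in ablated tissue. As for Hmmr, neither site overlapped between genotypes. The Bub1b difference was -3.82 ± 0.93 (adjusted p = 0.501), at -5.02 to -3.04 over single libraries left out. DESeq2 gave -2.80 and did not call it (DESeq2 adjusted p = 0.14). Top2a, the topoisomerase that untangles chromosomes, rose in both genotypes by 4.25 ± 0.51 (adjusted p = 3.57e-05) and 2.49 ± 0.45 (adjusted p = 0.000687), with a difference of -1.76 ± 0.68 (adjusted p = 0.808). Mki67, a nuclear protein of dividing cells, was at 11, 71.6 and 22.9 in non-ablated and at 17.8, 1275, 53.8 and 126 in ablated distal tissue. Distal_ablated 9 was far above the others. The Mki67 difference was -3.38 ± 1.52 (adjusted p = 0.868), and -2.21 without that library.

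DNA replication genes moved less. Of 23 tested, 16 rose in non-ablated and 14 in ablated lesions (14.7% and 16.1% of all genes), with medians of 2.56 and 1.59. The median response difference was -0.95, negative for 19 of 23, with 0 called and 3 lower at an unadjusted p under 0.05 (DESeq2 called 1 lower, edgeR 0). Of all genes, 47.6% were negative, 2.5% were lower at that unadjusted p and 0.262% were called lower by DESeq2. The distal groups overlapped in list mean, at 6.65 to 7.17 and 6.85 to 7.40. Uhrf1, which maintains DNA methylation at replication, was at 628, 665 and 419 in non-ablated and at 281, 204, 225 and 365 in ablated lesions, which did not overlap. Its difference was -2.18 ± 0.60 (adjusted p = 0.558). Rrm2, a subunit of ribonucleotide reductase, had -2.88 ± 1.32 (adjusted p = 0.868), and E2f1, a transcription factor of the G1 to S transition, had -1.15 ± 0.53 (adjusted p = 0.868). In bulk tissue, fewer cells of a type and less RNA per cell cannot be told apart, here and for every list below.

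Promoters of mitotic genes are known for a CHR element (TTTGAA) and CCAAT boxes, which are read by cell cycle repressors and by the factor NF-Y. The bases from 150 before to 20 after the annotated start are shown for Kif22 and Hmmr, members with a large difference, and for Cdhr3 as the other called gene, chosen after their values were seen. All lie on the minus strand of GRCm38.p6 and come from RefSeq, with TTTGAA or its reverse complement TTCAAA, and CCAAT or ATTGG, in capitals.
Kif22, chr7:127042401-127042570: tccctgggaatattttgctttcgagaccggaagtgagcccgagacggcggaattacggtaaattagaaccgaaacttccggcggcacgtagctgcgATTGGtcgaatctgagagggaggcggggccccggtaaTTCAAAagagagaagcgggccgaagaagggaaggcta
Hmmr, chr11:40733418-40733587: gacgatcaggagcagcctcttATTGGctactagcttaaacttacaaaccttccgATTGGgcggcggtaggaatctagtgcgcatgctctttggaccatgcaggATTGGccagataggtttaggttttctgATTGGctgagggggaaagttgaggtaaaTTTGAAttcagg
Cdhr3, chr12:33092856-33093025: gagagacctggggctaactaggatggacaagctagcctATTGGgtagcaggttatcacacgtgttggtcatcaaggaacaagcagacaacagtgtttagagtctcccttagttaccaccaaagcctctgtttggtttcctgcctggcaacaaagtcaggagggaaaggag
Kif22 holds TTCAAA 17 bases and ATTGG 54 bases before the start. Hmmr holds TTTGAA 8 bases after the start and ATTGG at 4 places before it. Cdhr3 holds ATTGG 112 bases before the start and no TTTGAA in these bases. In windows of 300 bases, searched on both strands, TTTGAA was found in 16 of 21 windows of the mitosis and spindle list (76.2%; 20 of 24 genes matched), in 3 of 24 of the DNA replication list (12.5%; 19 genes matched) and in 17.9% of all 32851 windows. CCAAT was found in 90.5%, 54.2% and 37.4%, and both in 76.2%, 8.33% and 6.95%. Some genes have more than 1 window, and a match is a match of letters, not a binding site. The gene spans printed above for Kif22 and Cdhr3 reach further upstream than the start used here. The TTCAAA of Kif22 thus lies within its printed span.

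Beyond the called pair, the differences with the smallest p lay on both sides. Myef2 encodes a nucleic acid-binding repressor of the Mbp gene. It was at 16, 9.92 and 10.2 in non-ablated distal tissue, 116, 109 and 109 in non-ablated lesions, 216, 145, 162 and 115 in ablated distal tissue and 35.1, 121, 77.3 and 85.5 in ablated lesions. Non-ablated distal tissue alone was low. Myef2 rose by 3.14 ± 0.49 in non-ablated lesions (adjusted p = 0.000269), and the difference was -4.22 ± 0.65 (adjusted p = 0.0636). Dyrk4, a protein kinase gene, was at 111, 123 and 111 in non-ablated lesions and at 3.14 to 14 in every other library. Its difference was -4.19 ± 0.73 (adjusted p = 0.144), and it rose in non-ablated lesions by 3.30 ± 0.55 (adjusted p = 0.000462). Myef2 overlaps Slc24a5, and its reads cannot be separated from that gene's.

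The bridging proteins of phagocytosis had response differences of opposite sign, neither of which limma called. Gas6 was at 5429, 5133 and 5431 in the distal libraries of non-ablated mice and at 5435, 5994, 5308 and 4625 in those of ablated mice, and at 19635, 21038 and 18352 in non-ablated and 6965, 6952, 6378 and 9180 in ablated lesions. The distal groups overlapped and the lesion groups did not. Gas6 rose in non-ablated lesions by 1.88 ± 0.18 (adjusted p = 4.57e-06) and in ablated lesions by 0.46 ± 0.15 (adjusted p = 0.0353). Its response difference was -1.43 ± 0.23 (adjusted p = 0.097). Mfge8 was at 3234, 2976 and 3046 in non-ablated and 2350, 3919, 2244 and 3333 in ablated distal tissue, and at 4727, 4542 and 6969 in non-ablated and 15368, 15120, 15394 and 19408 in ablated lesions. Every ablated lesion library was above every non-ablated one by more than the spread of either group. Mfge8 rose by 0.78 ± 0.24 (adjusted p = 0.0237) and 2.49 ± 0.21 (adjusted p = 1.02e-06), and its difference was 1.71 ± 0.31 (adjusted p = 0.183). DESeq2 called both differences. Axl, the Gas6 receptor kinase, had -0.90 ± 0.34 (adjusted p = 0.786) and rose in both genotypes, by 1.68 ± 0.25 (adjusted p = 0.000213) and 0.78 ± 0.22 (adjusted p = 0.0145).

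A further 5 genes with negative differences of small p follow, none of them called by limma or edgeR and all 5 called by DESeq2. They were taken for a small limma p in the same libraries, so the DESeq2 calls are not separate support. Arsb, a lysosomal sulfatase, was at 8652, 7087 and 6816 in non-ablated and at 2550, 2698, 1946 and 3565 in ablated lesions, with a difference of -1.66 ± 0.30 (adjusted p = 0.181). Dab2, an endocytic adaptor, was at 4049, 4780 and 4193 and at 1605, 1266, 1424 and 2000, with a difference of -1.81 ± 0.35 (adjusted p = 0.209). Lesion libraries of the genotypes did not overlap for either gene and distal ones did, and Dab2 rose in both genotypes, by 3.48 ± 0.27 (adjusted p = 1.27e-06) and 1.67 ± 0.23 (adjusted p = 8.2e-05). Npl, an enzyme of sialic acid breakdown, had -2.70 ± 0.57 (adjusted p = 0.313), and -2.34 without distal_ablated 9, its highest distal library. Serpine2, a secreted serine protease inhibitor, was at 38437, 34923 and 36369 in non-ablated and at 21017, 17892, 16211 and 17278 in ablated lesions, again apart. Its difference was -1.14 ± 0.23 (adjusted p = 0.272). Htra3, a secreted serine protease, had -1.72 ± 0.37 (adjusted p = 0.335).

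Pan-macrophage genes had larger median responses in ablated mice, with lower levels in ablated distal tissue. Of 16 tested, all were negative in ablated against non-ablated distal tissue, with a median of -1.77 and 3 called lower (0.326% of all genes). For 7 of 16 the ablated distal libraries lay below all non-ablated ones (3.1% of all genes). In lesions the median ablation effect was -0.50 with 2 called lower (0.262%). In the response, 12 rose in non-ablated and 14 in ablated lesions (14.7% and 16.1% of all genes), with medians of 2.75 and 3.81. The response difference was positive for 14 of 16, against 52.4% of all genes, with a median of 0.67, 0 called and 5 higher at an unadjusted p under 0.05 (3.16% of all genes; DESeq2 called 0). All lesion-minus-distal pairs were higher in ablated mice for 2 (0.742%). The median was 0.59 to 1.14 over single libraries left out, the latter without distal_control 1. Ctss, the lysosomal protease cathepsin S, was at 9641, 12660 and 14831 in non-ablated and 895, 5657, 2350 and 3893 in ablated distal tissue, and at 71618, 73233 and 108829 and then 107108, 86312, 97242 and 113539 in the lesions. The distal groups were apart and the lesion groups overlapped. Its difference was 2.50 ± 0.64 (adjusted p = 0.544). Laptm5, a lysosomal membrane protein of leukocytes, had 1.12 ± 0.46 (adjusted p = 0.855), and Ptprc, the leukocyte phosphatase CD45, had 1.74 ± 0.73 (adjusted p = 0.863).

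Receptor and transporter genes of myeloid cells were among the positive differences with the smallest p, and their ablated distal libraries were low. Slc11a1, a metal transporter of phagosomes, was at 356, 563 and 298 in non-ablated and at 33.2, 71.8, 97.6 and 128 in ablated distal tissue, and at 2244, 2180 and 2405 and then 3339, 2979, 2225 and 3937 in lesions. It rose in both genotypes, by 2.54 ± 0.41 (adjusted p = 0.000381) and 5.35 ± 0.36 (adjusted p = 2.48e-07), with a difference of 2.81 ± 0.55 (adjusted p = 0.209). Csf3r, the receptor of granulocyte colony-stimulating factor, was at 730, 940 and 1097 and then 49.8, 104, 126 and 58.1 in distal tissue, and at 2661, 2247 and 3753 and then 1110, 1023, 1717 and 1134 in lesions. For Csf3r both sites were apart, with the ablated libraries lower. Its difference was 2.31 ± 0.48 (adjusted p = 0.294). Fcrl1, an Fc receptor-like gene known from B cells, was at 582, 95.9 and 230 in non-ablated distal tissue and at 1.19, 0, 10 and 0 in ablated distal tissue, and at 3687, 4081 and 7679 and then 1373, 1515, 1561 and 1820 in lesions. Fcrl1 had the largest difference of these, 5.09 ± 1.06 (adjusted p = 0.294), against distal libraries at or near 0. Csf2rb, the common beta chain of the GM-CSF receptor family, had 3.00 ± 0.68 (adjusted p = 0.417), a value that reads of its close relative Csf2rb2 could affect. Siglecf, a sialic acid-binding receptor, had 4.60 ± 1.01 (adjusted p = 0.335).

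Homeostatic microglia genes, which mark resting microglia, were mostly lower in ablated lesions, and their median response was smaller there. Of 11 tested, 10 were negative in ablated against non-ablated lesions with 5 called lower (0.262% of all genes), and 9 had lesion libraries that did not overlap (8.36% of all genes). In ablated distal tissue all 11 were negative and 2 were called lower (0.326%). In the lesion response 4 rose and 1 fell in non-ablated mice (14.7% and 13.3% of all genes), and 5 rose and 3 fell in ablated mice (16.1% and 13.8%), with medians of 1.33 and 0.20. The median response difference was -0.68 (-1.06 without distal_ablated 9 and -0.44 without distal_ablated 11), with 0 called. At an unadjusted p under 0.05, 1 was higher and 2 were lower (3.16% and 2.5% of all genes), and DESeq2 called 1 higher (0.352%). Fcrls, a microglial Fc receptor-like gene, was at 34985, 32779 and 36595 in non-ablated and at 5112, 5495, 3367 and 7989 in ablated lesions, which were apart. It rose in both genotypes, by 3.63 ± 0.41 (adjusted p = 1.94e-05) and 2.06 ± 0.35 (adjusted p = 0.000497), with a difference of -1.57 ± 0.54 (adjusted p = 0.745). Sall1, a transcription factor of microglial identity, was at 1179, 1242 and 440 in non-ablated and 965, 700, 518 and 815 in ablated distal tissue, which overlapped (-0.24 ± 0.37, adjusted p = 0.905). In lesions it was at 690, 531 and 650 without and 142, 204, 277 and 192 with ablation. It fell in ablated lesions by 1.88 ± 0.34 (adjusted p = 0.000731), with -0.48 ± 0.39 in non-ablated ones (adjusted p = 0.406) and a difference of -1.40 ± 0.52 (adjusted p = 0.771; -0.92 without distal_control 5). Tgfbr1, a receptor of transforming growth factor beta, went the other way at 1.38 ± 0.36 (adjusted p = 0.558). In distal libraries it was at 371, 297, 327 and 500 with ablation and at 1607, 1671 and 1024 without. Csf1r, the survival receptor of microglia and macrophages, had a difference of 0.57 ± 0.53 (adjusted p = 0.96; 0.11 without distal_ablated 9), with a lower level in ablated tissue at both sites (-2.55 ± 0.38, adjusted p = 0.0122 in distal tissue; -1.98 ± 0.38, adjusted p = 0.0459 in lesions). Tmem119, a microglial membrane protein, was at 26069 in distal_ablated 7 and at 1169 to 4078 in the other ablated distal libraries, and its difference was -1.48 ± 1.18 (adjusted p = 0.945), at -0.62 without that library and -2.22 without distal_control 3.

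**Figure D4:**
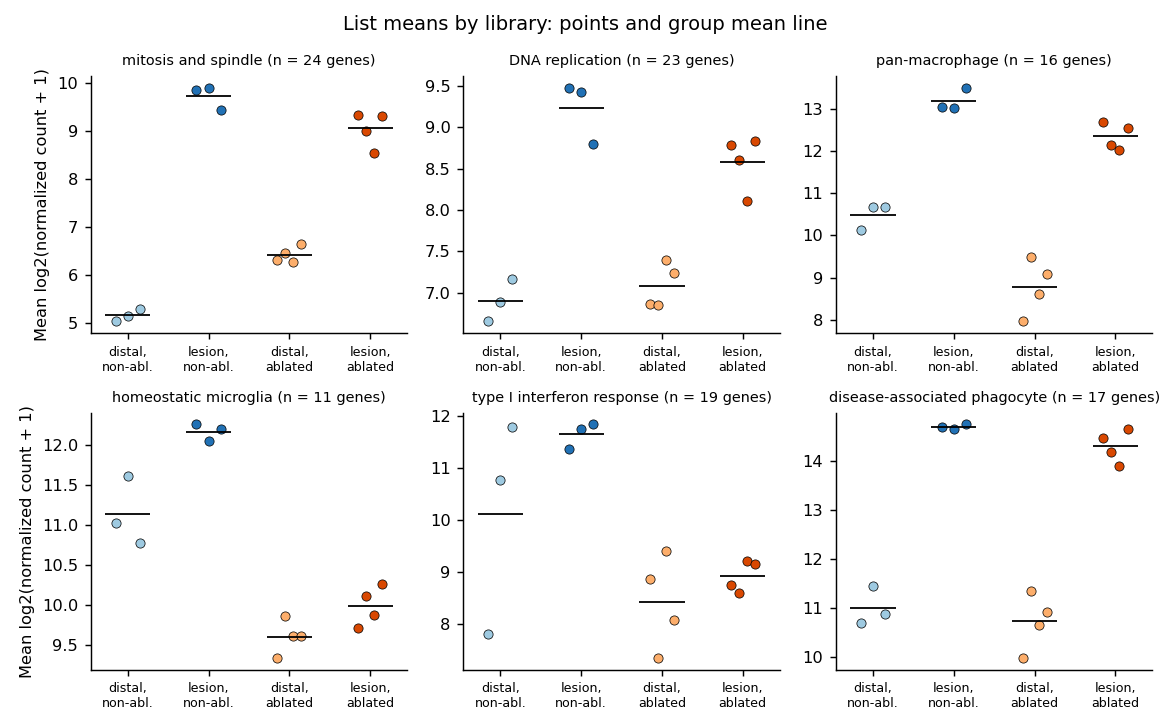
Mean log2(normalized count + 1) over the tested members of 6 gene lists in each library (points) with the group mean (line). Mitosis and spindle genes averaged 5.03 to 5.29 in non-ablated and 6.26 to 6.63 in ablated distal libraries, and pan-macrophage genes 10.12 to 10.68 and 7.96 to 9.48.

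Genes of disease-associated phagocytes, which are switched on in microglia and macrophages near damaged tissue, mostly rose in both genotypes. Of 17 tested, 16 rose in non-ablated and 15 in ablated lesions (14.7% and 16.1% of all genes), with medians of 3.67 and 3.69. The median difference was -0.17 (-0.38 without lesion_ablated 8 and 0.08 without distal_ablated 13). None was called, 3 were lower and 0 higher at an unadjusted p under 0.05 (2.5% and 3.16% of all genes), and DESeq2 called 0. Spp1, the secreted phosphoprotein osteopontin, was at 279799, 407948 and 231414 in non-ablated and 536654, 370311, 188137 and 682393 in ablated lesions, with a difference of -0.24 ± 0.97 (adjusted p = 0.991). Gpnmb, a lysosome-related glycoprotein of lipid-laden phagocytes, rose by 7.13 ± 0.46 (adjusted p = 8.35e-07) and 7.11 ± 0.40 (adjusted p = 7.22e-08), with a difference of -0.02 ± 0.61 (adjusted p = 0.999). Apoe, the lipid-carrying apolipoprotein, had 0.74 ± 0.43 (adjusted p = 0.927; 0.47 without distal_control 5). With standard errors of 0.43 to 0.97, these values do not show that the responses were alike. Igf1, a growth factor, was at 12036, 12312 and 13241 in non-ablated and 3827, 3934, 5152 and 5785 in ablated lesions, which were apart, with a difference of -1.16 ± 0.54 (adjusted p = 0.877). Ch25h, which makes 25-hydroxycholesterol, was at 3075, 2505 and 1392 and at 168, 258, 157 and 402 in lesions, again apart. Its difference was -3.24 ± 1.19 (adjusted p = 0.771), and -2.38 without distal_ablated 9. Cst7, a cysteine protease inhibitor, was at 2657, 2689 and 3264 in non-ablated and 130, 113, 43.2 and 238 in ablated lesions. Its level was lower in ablated tissue at both sites (-4.67 ± 0.57, adjusted p = 0.00301 in lesions and -3.02 ± 0.57, adjusted p = 0.0369 in distal tissue). Cst7 rose in non-ablated lesions by 2.79 ± 0.60 (adjusted p = 0.00322), with 1.14 ± 0.52 in ablated ones (adjusted p = 0.118) and a difference of -1.65 ± 0.80 (adjusted p = 0.889).

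Of 16 lysosome genes, 14 rose in non-ablated and 15 in ablated lesions (14.7% and 16.1% of all genes), with medians of 2.15 and 2.92. Their median difference was 0.24, which was 0.15 without lesion_control 4 and 0.39 without lesion_control 6. Of them 0 were called, and 2 were higher and 1 lower at an unadjusted p under 0.05 (3.16% and 2.5% of all genes). DESeq2 called 0. Psap, the precursor of the sphingolipid activators, was at 105133, 95813 and 131916 in non-ablated and 207273, 159173, 216107 and 304127 in ablated lesions, which did not overlap. In all, 4 of the 16 had ablated lesion libraries above every non-ablated one (7.62% of all genes). Psap rose in both genotypes, by 1.99 ± 0.24 (adjusted p = 2.95e-05) and 2.96 ± 0.20 (adjusted p = 2.9e-07), with a difference of 0.97 ± 0.31 (adjusted p = 0.745). Man2b1, a lysosomal mannosidase, had 1.12 ± 0.43 (adjusted p = 0.808). Of 11 complement genes, the median difference was 0.74 (0.33 without distal_control 5), with 0 called by limma or DESeq2. At an unadjusted p under 0.05, 1 was higher (3.16% of all genes). Their median ablation effect was -0.78 in distal tissue, with 2 called lower (0.326% of all genes). In lesions it was -0.64, with 0 called. C1qb, a chain of C1q, had a difference of 0.82 ± 0.35 (adjusted p = 0.863). Its level was lower in ablated distal tissue (-1.42 ± 0.25, adjusted p = 0.0261), with -0.59 ± 0.25 in lesions (adjusted p = 0.575).

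Markers of cells that enter lesions gave mixed values. Infiltrating monocyte genes had a median difference of 0.66 over 14 genes, which was 1.32 without distal_control 1 and -0.35 without distal_control 5. Fn1, fibronectin, was at 45000, 62626 and 42452 in non-ablated and 17524, 14625, 21657 and 26206 in ablated lesions, apart from each other, with a difference of -1.64 ± 0.54 (adjusted p = 0.745; -1.07 without distal_control 1). Border macrophage genes had a median of -0.94 over 9 genes, which was -1.47 without distal_control 5 and -0.36 without distal_ablated 13, and Stab1, a scavenger receptor, had -1.52 ± 0.65 (adjusted p = 0.863). Neutrophil genes had a median of 1.77 over 6 tested of 12, which was 0.87 without distal_control 5, and Ly6g, Mpo and Elane were among the 6 that did not pass the filter. T and NK cell genes had a median of -0.04 over 10 of 14, between -1.36 without distal_control 5 and 1.17 without distal_control 1. None of these 4 lists had a called member, and at an unadjusted p under 0.05 they held 0, 0, 1 and 0 higher and 1, 1, 0 and 0 lower members in that order. Of all genes, 3.16% were higher and 2.5% lower at that unadjusted p. DESeq2 called 1 in all, Csf3r in the neutrophil list (0.352% of all genes were called higher). Csf3r was already at 730, 940 and 1097 in uninjured distal tissue of non-ablated mice, and its ablated libraries were lower at both sites. Its call is thus not read as one of entering cells.

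Interferon response genes, which are antiviral effectors, had a median difference of -1.32 over 19 genes, negative for 16 (47.6% of all genes). In lesions, 18 of 19 had ablated libraries below all non-ablated ones (8.36% of all genes). The response difference had 0 called members, 1 lower at an unadjusted p under 0.05 (2.5% of all genes) and 0 called by DESeq2. Distal_control 1 decided the value: the list mean was 7.81 in it, 10.78 and 11.80 in the other non-ablated distal libraries, 7.35 to 9.40 in distal tissue of ablated mice, 11.36 to 11.85 in lesions of non-ablated mice and 8.61 to 9.22 in those of ablated mice. Without that library the median difference was -0.03, and without distal_control 5, which has the highest T and NK cell mean of the distal libraries, it was -1.88. It was -0.68 with edgeR and -0.69 with DESeq2. Rtp4, a chaperone of receptor transport, had -1.64 ± 0.83 (adjusted p = 0.894), Stat2, a signal transducer of the interferon receptor, -1.32 ± 0.69 (adjusted p = 0.897) and Ifi27l2a, an interferon-induced gene that overlaps Ifi27, -2.49 ± 1.06 (adjusted p = 0.863). Without distal_control 1 these 3 differences were -1.02, -0.64 and -1.44. Antigen presentation genes had a median of -0.13 over 8 of 13, with 5 listed at 0. That median changed sign with the tool or the library, at 0.13 with edgeR, 0.50 without distal_control 1 and -0.67 without distal_control 5.

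Chemokine and cytokine genes had a median difference of 0.38 over 16 genes, which was -0.12 without distal_control 5, 1.06 without distal_control 1 and 0.86 with edgeR. Of them 0 were called, 1 was higher at an unadjusted p under 0.05 (3.16% of all genes) and 1 was called higher by DESeq2 (0.352%). That gene was Osm, a cytokine of the interleukin-6 family. It was at 58.9, 45.2 and 33.1 in non-ablated and 2.37, 0, 6.39 and 8.94 in ablated distal tissue, and at 192, 165 and 200 and then 172, 144, 112 and 173 in lesions. The distal groups were apart and the lesion groups overlapped. Osm rose by 2.03 ± 0.70 (adjusted p = 0.0437) and 5.23 ± 0.61 (adjusted p = 1.87e-05), with a difference of 3.20 ± 0.93 (adjusted p = 0.638). Il1b, interleukin-1 beta, was at 1.19, 0, 2.74 and 2.68 in ablated distal tissue and had 2.02 ± 1.11 (adjusted p = 0.923).

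A few genes had lesion responses called in opposite directions. Epas1, the hypoxia-responsive factor HIF-2 alpha of endothelium, was at 8492, 9029 and 7225 in non-ablated and 6373, 4288, 7596 and 7479 in ablated distal tissue, and at 3659, 4129 and 4741 and then 8622, 8106, 10840 and 11773 in lesions. The lesion groups were apart, and the level in ablated lesions was called higher (0.032% of all genes were). It fell by 0.98 ± 0.23 in non-ablated lesions (adjusted p = 0.0061) and rose by 0.63 ± 0.20 in ablated ones (adjusted p = 0.0299). Slc46a1, a folate transporter, was at 103, 268 and 191 and then 484, 420 and 441 in non-ablated mice, and at 564, 484, 281 and 362 and then 268, 237, 144 and 178 in ablated mice. It rose by 1.36 ± 0.39 (adjusted p = 0.0191) and fell by 1.02 ± 0.34 (adjusted p = 0.0355). The differences were 1.61 ± 0.31 for Epas1 (adjusted p = 0.209) and -2.38 ± 0.52 for Slc46a1 (adjusted p = 0.335), neither of which was called by limma. DESeq2 called both. Slc46a1 overlaps Sarm1, and the remaining gene of the 3 is a RIKEN clone.

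Genes with smaller falls or larger rises in ablated lesions also lay among the lowest p. Dnal1, a dynein light chain of cilia, was at 985, 553 and 859 and then 131, 108 and 73.6 in non-ablated mice, and at 344, 179, 366 and 399 and then 289, 236, 243 and 208 in ablated mice. It fell in non-ablated lesions by 2.93 ± 0.37 (adjusted p = 5.17e-05), with -0.35 ± 0.32 in ablated ones (adjusted p = 0.462) and a difference of 2.58 ± 0.49 (adjusted p = 0.209). Rasgrp2, an exchange factor for Rap proteins, fell by 2.12 ± 0.31 in non-ablated lesions (adjusted p = 0.000156) and had a difference of 1.93 ± 0.41 (adjusted p = 0.313). Rilpl2, which binds Rab proteins, rose by 3.19 ± 0.34 in ablated lesions (adjusted p = 8.61e-06), with 0.91 ± 0.39 in non-ablated ones (adjusted p = 0.103) and a difference of 2.29 ± 0.52 (adjusted p = 0.398).

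Myelin and astrocyte genes fell in both genotypes, while reactive astrocyte and neuron genes were mixed. All 17 myelin and mature oligodendrocyte genes fell in both genotypes (13.3% and 13.8% of all genes), with medians of -2.96 and -2.73. The response difference had a median of 0.27 (0.12 without distal_ablated 11 and 0.50 without lesion_control 2), positive for 14 (52.4% of all genes). Of these genes 0 were called, 0 were at an unadjusted p under 0.05 and 0 were called by DESeq2. Mbp, a major myelin protein, was at 162076, 102461 and 123563 in non-ablated and 209816, 180582, 201558 and 163356 in ablated lesions, which were just apart. Its difference was 0.48 ± 0.34 (adjusted p = 0.939), and that of Mobp, another myelin protein, was 0.53 ± 0.30 (adjusted p = 0.927). All 13 astrocyte genes fell in both genotypes (13.3% and 13.8% of all genes), with medians of -2.49 and -2.05. Their median difference was 0.50, which was 0.27 without lesion_ablated 12. Of these genes 0 were called by limma or DESeq2, and 1 was higher at an unadjusted p under 0.05 (3.16% of all genes). Mlc1, an astrocyte membrane protein, had 0.96 ± 0.40 (adjusted p = 0.855), and Gfap, the astrocyte intermediate filament, fell by 2.39 ± 0.25 (adjusted p = 1.1e-05) and 1.66 ± 0.22 (adjusted p = 5.25e-05), with a difference of 0.73 ± 0.33 (adjusted p = 0.868). Of 12 reactive astrocyte genes, 3 rose and 1 fell in non-ablated lesions (14.7% and 13.3% of all genes). In ablated lesions 6 rose and 1 fell (16.1% and 13.8%). Their median difference was 0.54, which was 0.01 without distal_control 5. Lcn2, lipocalin 2, had 2.49 ± 1.11 (adjusted p = 0.863), at 1.44 without distal_control 5 and 3.57 without distal_control 1. Of 17 neuron genes, 2 fell in non-ablated and 0 in ablated lesions (13.3% and 13.8% of all genes), and 0 rose in either (14.7% and 16.1%). Their median difference was 0.94, positive for 15 (52.4% of all genes), and was 0.36 without distal_control 1 and 1.66 without distal_ablated 11. The neuron list mean ran from 6.58 to 9.27, 6.70 to 9.82, 5.56 to 7.14 and 6.32 to 9.22 in non-ablated distal, ablated distal, non-ablated lesion and ablated lesion libraries. Ependymal genes had 0.93 over 7 (0.54 without distal_control 5), all 7 positive (52.4% of all genes), with 0 called, 0 at an unadjusted p under 0.05 and 0 by DESeq2.

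Progenitor, vessel and matrix lists had medians of 0.23 to 0.39. Oligodendrocyte progenitor genes had a median of 0.38 over 11, which was 0.21 without lesion_ablated 12. Cspg4, the NG2 proteoglycan of progenitors and pericytes, was at 550, 356 and 299 and then 2660, 2598 and 2229 in non-ablated mice, and at 512, 1488, 432 and 567 and then 1498, 1164, 1160 and 1337 in ablated mice. The lesion groups were apart. Cspg4 rose by 2.68 ± 0.38 (adjusted p = 0.000135) and 0.96 ± 0.33 (adjusted p = 0.0399), with a difference of -1.71 ± 0.50 (adjusted p = 0.675), and -1.32 without distal_ablated 9. Endothelial and pericyte genes had 0.39 over 16 (0.61 without distal_control 1), and Kdr, the main VEGF receptor, had -3.29 ± 1.05 (adjusted p = 0.745), and -2.75 without distal_ablated 9. Fibroblast and extracellular matrix genes rose at 12 of 14 members in each genotype (14.7% of all genes in the non-ablated and 16.1% in the ablated response). Their median difference was 0.23, which was 0.03 without lesion_ablated 12 and 0.36 without lesion_control 4. Schwann cell genes had -0.30 over 10, which was -0.75 without distal_control 5 and 0.08 without distal_control 3. Blood cell genes had 0.97 over 2, which was -0.26 without distal_control 5 and 2.03 without distal_control 1. None of these lists had a called member by limma or DESeq2. At an unadjusted p under 0.05 the progenitor list had 1 lower, the endothelial list 2 higher and 2 lower, the fibroblast list 0, the Schwann list 1 lower and the blood list 0. Of all genes, 3.16% were higher and 2.5% lower at that unadjusted p.

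Metabolic and signalling lists had medians of -0.52 to 0.35. All 18 cholesterol biosynthesis genes were negative in both lesion responses, 15 fell in non-ablated and 17 in ablated lesions (13.3% and 13.8% of all genes), and the median difference was 0.02 (-0.13 without lesion_control 6 and 0.13 without lesion_control 2). Lipid efflux and storage genes had 0.35 over 15 (0.18 without distal_ablated 11). Nr1h3, the sterol-sensing receptor LXR alpha, was at 211, 152 and 200 in non-ablated and 374, 307, 346 and 521 in ablated lesions, which were apart. It rose in ablated lesions by 2.21 ± 0.37 (adjusted p = 0.000416), with 0.48 ± 0.43 in non-ablated ones (adjusted p = 0.45) and a difference of 1.73 ± 0.57 (adjusted p = 0.745). Plin4, a lipid droplet coat protein, fell by 4.20 ± 0.38 (adjusted p = 3.54e-06) and 2.98 ± 0.33 (adjusted p = 1.25e-05), with a difference of 1.22 ± 0.50 (adjusted p = 0.855). Hypoxia and glycolysis genes had -0.52 over 18, negative for 12 (47.6% of all genes), and -0.67 to -0.35 over single libraries left out. Hif1a, the hypoxia-inducible factor subunit, rose by 1.62 ± 0.22 (adjusted p = 8.74e-05) and 0.79 ± 0.19 (adjusted p = 0.00582), with a difference of -0.84 ± 0.29 (adjusted p = 0.745). Bnip3, a hypoxia-induced mitophagy receptor, had -1.10 ± 0.36 (adjusted p = 0.745). Immediate early genes had 0.35 over 12 (0.12 without distal_ablated 7 and 0.57 without distal_ablated 11). Epas1 was the sole member of these 4 lists that DESeq2 called (0.352% of all genes were called higher), and limma called 0. At an unadjusted p under 0.05 they held 0, 2, 1 and 0 higher and 0, 0, 3 and 1 lower members in the order given. Of all genes, 3.16% were higher and 2.5% lower at that unadjusted p.

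**Figure D5:**
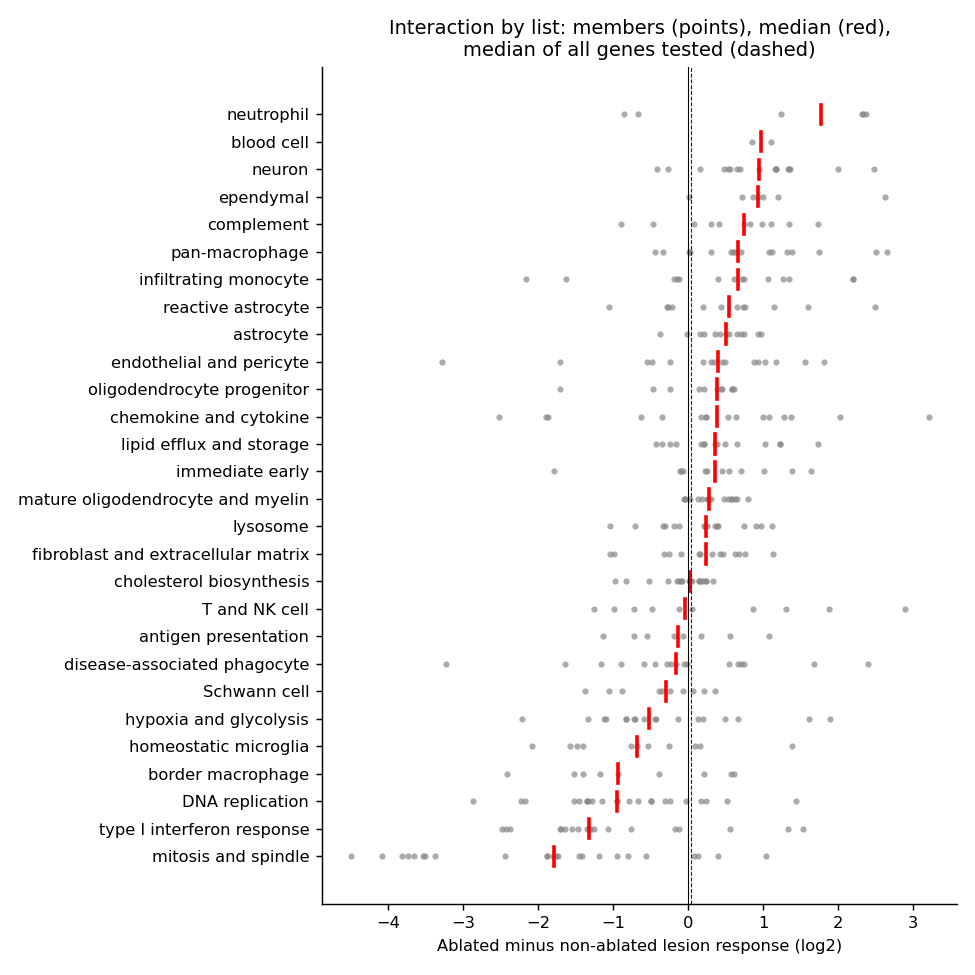
Response difference (horizontal axis, log2, ablated minus non-ablated) of each tested member (points) of 28 gene lists, with the list median (red) and the median of all genes tested (dashed, 0.04). The mitosis and spindle list lies lowest, with a median of -1.79, and the neutrophil list highest, with a median of 1.77 over 6 genes (0.87 without distal_control 5).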

How the data were processed

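RNA was extracted from all samples together, reverse-transcribed and amplified by multiple displacement with a single-cell kit from Qiagen, per the labels' protocols. Software in the submitters' processing notes is BWA 0.7.17.1, bcl2fastq and DESeq2, with build mm10. For the counter, annotation and strand use, the sources used here give nothing. The values are a deposited signal, namely counts per gene scaled by the authors with 1 DESeq2 size factor per library, per the labels. Dividing by the value of 1 read gave whole reads within 0.01 for all 14 libraries. In distal_control 1 that value was 0.998. A 0 is compatible with as many as 3 reads by counting error, and amplification makes reads dependent on each other.

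Values were log2(normalized count + 1), a scale that understates changes of low genes, for genes with at least 10 in at least 3 libraries. limma 3.58.1 (trend, R 4.3.3) fitted 4 group means over 14 libraries, with 10 residual and 4.23 prior degrees of freedom. Two-sided p-values were adjusted by Benjamini-Hochberg over all 15637 genes, and genes were called at an adjusted p under 0.05. Values after ± are limma standard errors, and adjusted p-values with no tool named are from limma. edgeR 4.0.16 (quasi-likelihood) and DESeq2 1.42.0 ran on recovered reads as alternatives. Others were scalings, pseudocounts, filters, array weights, left-out libraries, an age term and a block by consecutive title numbers. Scripts were tested on simulated data.

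The 28 lists (407 genes, 377 tested, 16 at 0, 3 not in the table) and the members were chosen with earlier results of these data known. Named genes are the called ones, the 10 smallest p each way, 3 per list, those with opposite calls and a fixed set. Entrez identifiers matched the RefSeq table of GRCm38.p6 for 24061 of 24116 genes, which gave 35 symbols and all coordinates. Labels do not say that libraries of a group come from separate experiments beyond the pools. Not every gene that the rule takes is printed.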

Additional observations from a re-analysis of the deposited data

Results flagged for a closer look

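The response difference between genotypes was itself called by limma for Cdhr3 (-4.80) and Kif22 (-3.66).

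A single library lay far from the other 3 of its group, by Dixon's gap ratio at 0.829, for 11 of 130 groups of 4 libraries tested. In a single test, chance alone gives about 1 in 20. The groups are named genes in the same ablated libraries and are not independent. The 11 of 130 thus cannot be compared with that rate. Distal_ablated 9 was the high library for 6 of them: Npl at a normalized count of 493, Mki67 at 1275, Ch25h at 1841, Kdr at 1981, Cspg4 at 1488 and C1qb at 2066. This library also had the highest value per read. Distal_ablated 7 was high for Tmem119, at 26069, and distal_ablated 11 for Fcrl1, at 10.04. In ablated lesions, library 14 was high for Mfge8 (19408), library 12 for Csf3r (1717) and library 8 for Apoe (393302).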

How the results depend on the processing

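The count of 2 genes called in the response difference was 0 without a filter, without distal_control 5 and lesion_control 6, or without distal_ablated 9 and lesion_ablated 10, 1 with a filter at 50 or an age term, 6 with array weights, 96 with DESeq2 and 0 to 2 with single libraries left out. Of list members 1 was called, against 0 without a filter or either pair of libraries, 11 with DESeq2 and 0 to 1 with single libraries left out. Of named genes 2 were called, against 0, 0 and 0 under those settings, 1 with a filter at 50 or an age term, 5 with array weights, 26 with DESeq2 and 0 to 2 with single libraries left out. Labels share no replicate numbers between lesion and distal tissue. A replicate block by consecutive title numbers gave 0 called genes, 0 list members and 0 named genes, with adjusted p = 0.229 for Kif22 and 0.533 for Cdhr3; deviations of the paired libraries correlated at -0.0957 to 0.206, and 4 of 7 were best with their own number. The called lesion responses stayed within 2989 to 6109 (non-ablated) and 3661 to 5504 (ablated) genes. The cause of these changes was not tested.

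Signs turned for values near 0, none of them called. The Gpnmb difference was 0.0036 with TMM, 0.12 and 0.089 without the library pairs 5 with 6 and 9 with 10, and -0.44 to 0.41 with single libraries left out; that of Spp1 was -0.998 to 0.18. The ablated response of Ch25h was 0.32 with array weights, 0.39 without 9 and 10 and -0.81 to 0.44 with single libraries left out. That of Htra3 was 0.036, 0.12 and -0.28 to 0.031 in the same order. That of Tmem119 was -0.57 with edgeR, -0.55 with DESeq2 and -0.44 to 1.05 with single libraries left out, that of Rtp4 -0.11 to 0.71, and that of Stat2 -0.30 without 9 and 10, -0.11 with an age term, -0.0381 with edgeR, -0.0189 with DESeq2 and -0.27 to 0.27. The non-ablated response of Ifi27l2a was -0.0105 with edgeR and -0.18 to 1.96, and that of Lcn2 was 0.32 without 5 and 6 and -1.43 to 0.70. Depth limits low genes such as Cdhr3 and Fcrl1 most.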
